A study of Mus musculus with 34 samples.

Results

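The data described here are the mRNA levels of 9 nuclear genes that encode enzymes of the tricarboxylic acid (TCA) cycle, Cs, Idh2, Idh3a, Ogdh, Dlst, Sucla2, Suclg1, Fh1 and Mdh2, in mouse hearts after myocardial infarction (MI). Members were the rows whose gene symbol matched 1 of these 9 names, which gave 9 of 14552 genes listed in a first table and 9 of 17406 in a second. All 9 had a mean of at least 1 CPM in both tables and entered every test. CPM is the number of reads on a gene scaled for library size. The values used here do not sum to the same total in each library, so a level is not an exact share.

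Poly(A) RNA of the left ventricle was sequenced from CFW mice, an outbred Swiss Webster stock, in which MI was made by tying off the left anterior descending coronary artery for good; neither the age nor the sex of the mice is given in the sources used here. The first table held 10 libraries, with no injection in any group. They were 3 of sham hearts (D, H and I), 3 taken 4 h after MI (C, D and E) and 4 taken 24 h after MI (C, D, G and H). By the study's methods, the tissue taken was the ischemic area, or the matching area of sham hearts. Its sham libraries are labelled as not operated, while the study's methods describe a sham operation. The second table held 24 libraries, of which 2 came from sham-operated hearts sampled at 4 h and 22 from infarcted hearts that received modified mRNA (modRNA) in the border zone of the infarct right after ligation. That modRNA was either Luc, the luciferase control, or AC, an agent that the labels do not spell out. Luc and AC had 4 libraries each at 4 h, 3 each at 24 h (A, C and D) and 4 each at 48 h. No group of the second table was infarcted without an injection, so MI and the injection cannot be told apart in its comparisons with sham.

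In the TCA cycle, acetyl-CoA made from fatty acids and pyruvate is joined to oxaloacetate and oxidised stepwise in the mitochondrial matrix, and the electrons released are passed to the respiratory chain. Heart muscle is dense in mitochondria and relies on this route for most of its ATP. Citrate synthase (Cs) opens the cycle, isocitrate dehydrogenases (Idh3a, Idh2) and the alpha-ketoglutarate dehydrogenase complex (Ogdh, Dlst) carry out its oxidative decarboxylations, succinyl-CoA synthetase (Sucla2, Suclg1) forms ATP or GTP, and fumarase (Fh1) and malate dehydrogenase (Mdh2) return the carbon to oxaloacetate.

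The genes are scattered over the genome, each on a chromosome of its own. In mm10, Cs lies at chr10:128337727-128362483, Idh3a at chr9:54586511-54604663, Ogdh at chr11:6291597-6359095, Dlst at chr12:85110833-85134092, Sucla2 at chr14:73552786-73596143, Suclg1 at chr6:73248505-73276908 and Mdh2 at chr5:135778649-135790387 on the plus strand. Idh2, at chr7:80094847-80115351, and Fh1, at chr1:175601378-175625636, lie on the minus strand.

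From just upstream of these genes, short stretches of 4 promoters are shown because they hold CCAAT, the CCAAT box, a promoter element bound by the factor NF-Y. The 250 bases before each annotated start were taken from RefSeq (GRCm38.p6) for 8 members, Idh3a having no matched entry, and both strands were searched for 5 motifs. CCAAT was found in 4 of the 8 promoters, against 37.5% of the promoters of 27025 genes. The lines below give 30 bases of each of the 4, 5′ to 3′ on the gene's strand, with the match in capitals; in Fh1 the match lies on the opposite strand and reads ATTGG.
Cs, chr10:128337660-128337689, plus strand: ttccattttgggCCAATggtcgaggccggg
Idh2, chr7:80115377-80115406, minus strand: cccgggtgagacCCAATggggcggcaggtt
Ogdh, chr11:6291525-6291554, plus strand: agcgactgaaacCCAATtctgtgacgtcac
Fh1, chr1:175625637-175625666, minus strand: aagaggcgtttgATTGGttacgagcgtggc

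The match began 55 bases before the start in Cs, 44 in Idh2, 19 in Fh1 and, in Ogdh, 60 before 1 of the several starts annotated. GGGCGG, the GC box, lay in 7 of the 8 promoters, all but that of Suclg1, against 35.4% of all promoters. TCAAGGTCA, a site of estrogen-related receptors, the palindromic site of nuclear respiratory factor 1, and CCGGAAG, a site of ETS factors, were each in 0 of the 8, against 0.422%, 0.877% and 7.83% of all promoters. These are matches of letters in a short window and say nothing of whether a factor was bound.

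Sham hearts of the first table held the members at 7957 ± 339 CPM in sum (SD, n = 3). To compare genes with each other, levels were divided by the length of the longest annotated coding transcript. Per kb of transcript in sham, Mdh2 stood highest at 685 ± 33.2 CPM and Idh2 next at 671 ± 96.4 (SD, n = 3). Ogdh followed at 520 ± 42.1 CPM per kb and Cs at 493 ± 24. These 4 levels formed an upper tier in which each neighbour in the order overlapped the next. A gap without overlap separated Cs from Sucla2 at 237 ± 22 CPM per kb, which overlapped Idh3a at 228 ± 18.8 and, through it, Dlst at 202 ± 9.91. Suclg1, at 174 ± 17.2 CPM per kb, and Fh1, at 113 ± 5.9, closed the order, and neither overlapped its upper neighbour.

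The first question was how the cycle's transcripts stood during the first day after MI without treatment. At 4 h they remained near sham: limma, fitted across all 12487 genes, called 0 of the 9 members, beside 2.37% of all genes called, and 0 had an unadjusted p under 0.05. The sum was 7853 ± 460 CPM (SD, n = 3), and the members' log2 changes ran from -0.22 (Ogdh) to 0.17 (Suclg1) with adjusted p from 0.504 to 0.975. At 24 h all 9 members were lower than in sham, and all 9 passed the test, beside 66% of all genes called in either direction and 30.3% called lower. All 4 libraries lay below every sham library for each of the 9, beside 28.7% of all genes. The sum was 4488 ± 860 CPM (SD, n = 4). The median log2 change of the members was -0.78, beside 0.04 for all genes tested.

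**Figure D1:**
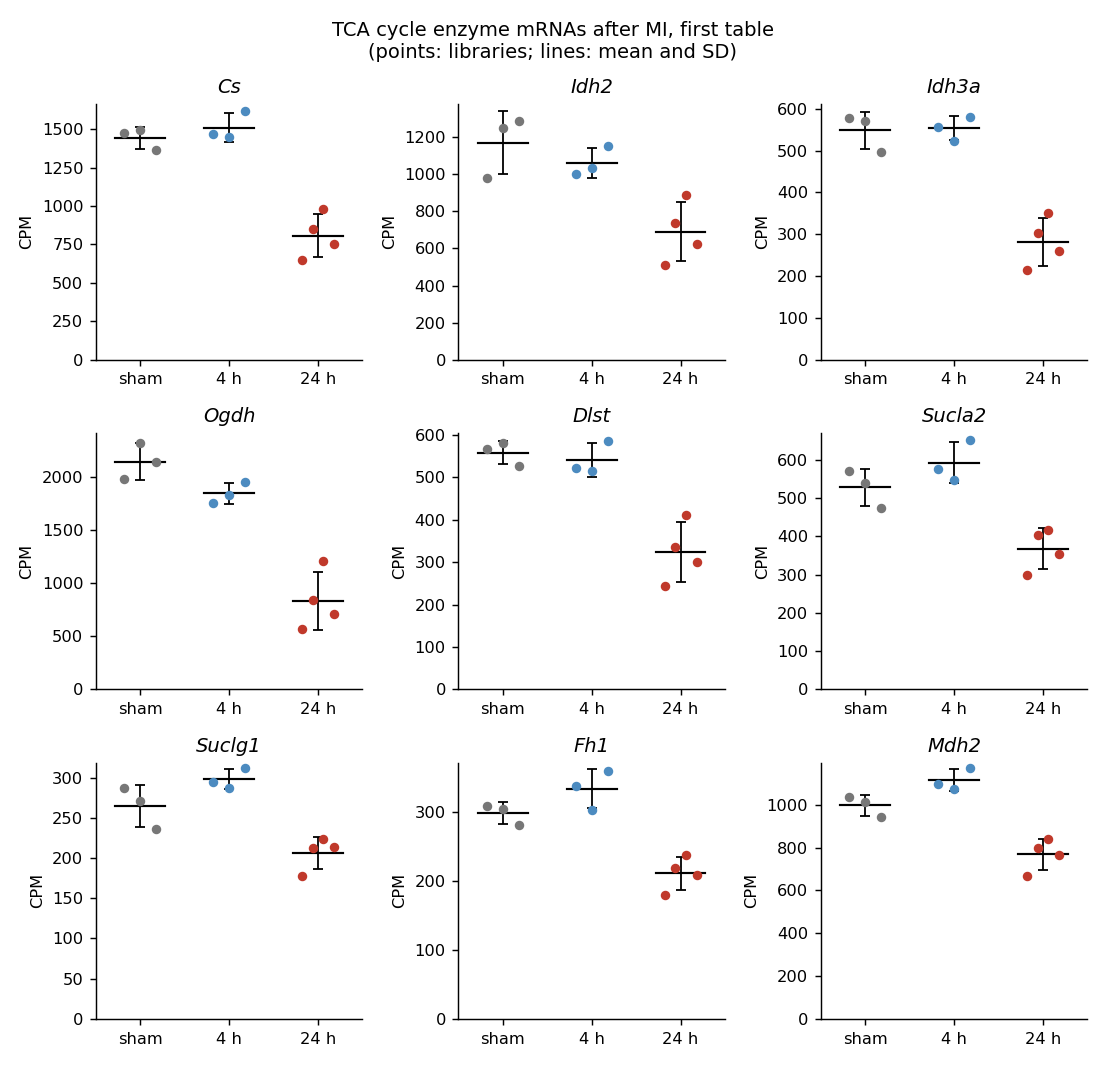
Level of each of the 9 genes in the first table, in CPM, with 1 point per library and a bar at the group mean with its SD for sham (n = 3), 4 h (n = 3) and 24 h (n = 4) after MI. The 24 h points lie below all sham points in every panel, and within the 24 h group the first point (library C) is the lowest and the third (library G) the highest for all 9 genes.

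Cs, which condenses acetyl-CoA with oxaloacetate, was measured at 1472, 1496 and 1364 CPM in the sham libraries D, H and I, at 1465, 1449 and 1617 CPM in the 4 h libraries C, D and E, and at 646, 853, 980 and 753 CPM in the 24 h libraries C, D, G and H. Sham and 4 h overlapped, and the 24 h libraries stood apart from both. The 24 h mean was 0.559 ± 0.102 of the sham mean, a log2 change of -0.85 (SE 0.15, adjusted p = 4.19e-04).

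Isocitrate is oxidised by a NAD-dependent enzyme, whose catalytic alpha subunit is Idh3a, and by the NADP-dependent Idh2, which also feeds the NADPH used against peroxides in mitochondria. Idh3a was at 578, 571 and 496 CPM in sham, at 558, 523 and 581 CPM at 4 h and at 216, 302, 350 and 260 CPM at 24 h. Idh2 was at 978, 1248 and 1287 CPM in sham, at 999, 1034 and 1152 CPM at 4 h and at 513, 738, 886 and 622 CPM at 24 h. Both had 24 h libraries clear of sham, with the highest 24 h library of Idh2 (G) close to the lowest sham library (D). Idh3a fell to 0.514 ± 0.113 of sham (log2 change -0.98, SE 0.15, adjusted p = 1.77e-04) and Idh2 to 0.589 ± 0.161 (-0.78, SE 0.18, adjusted p = 0.00288).

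The alpha-ketoglutarate dehydrogenase complex held the member that fell most. Ogdh, its dehydrogenase component, was at 1978, 2326 and 2139 CPM in sham, at 1761, 1831 and 1951 CPM at 4 h and at 569, 838, 1207 and 707 CPM at 24 h. Even the highest 24 h library was far below the lowest sham library, and the change at 4 h was not called (log2 change -0.22, adjusted p = 0.704). The 24 h mean was 0.387 ± 0.131 of sham, or 2.59-fold lower, with a log2 change of -1.42 (SE 0.22, adjusted p = 1.46e-04). Dlst, which carries the succinyl group in the same complex, was at 567, 581 and 528 CPM in sham, at 522, 514 and 587 CPM at 4 h and at 245, 337, 412 and 301 CPM at 24 h. It fell to 0.579 ± 0.129 of sham (log2 change -0.81, SE 0.16, adjusted p = 7.8e-04).

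Succinyl-CoA synthetase pairs a shared alpha subunit, Suclg1, with a beta subunit, of which Sucla2 is the ATP-forming version. Sucla2 was at 570, 540 and 474 CPM in sham, at 576, 549 and 652 CPM at 4 h and at 298, 404, 416 and 355 CPM at 24 h. Suclg1 was at 287, 270.5 and 236 CPM in sham, at 294, 287 and 312 CPM at 4 h and at 178, 212, 224 and 214 CPM at 24 h. The 24 h libraries of Suclg1 came close to the lowest sham library without reaching it. Sucla2 fell to 0.697 ± 0.121 of sham (log2 change -0.53, SE 0.14, adjusted p = 0.0052) and Suclg1 to 0.781 ± 0.108 (-0.36, SE 0.11, adjusted p = 0.0135). The call of Suclg1 rested on sham library D, without which its log2 change was -0.29 and missed the threshold.

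The closing steps, fumarase (Fh1) and malate dehydrogenase (Mdh2), were among the members with the smaller falls. Fh1 was at 309, 305 and 280 CPM in sham, at 338, 303 and 359 CPM at 4 h and at 179, 218, 238 and 208 CPM at 24 h. Mdh2 was at 1036, 1013 and 943 CPM in sham, at 1099, 1072 and 1171 CPM at 4 h and at 669, 799, 839 and 766 CPM at 24 h. Fh1 fell to 0.707 ± 0.0894 of sham (log2 change -0.50, SE 0.11, adjusted p = 0.00225) and Mdh2 to 0.770 ± 0.0818 (-0.38, SE 0.12, adjusted p = 0.0142). Against the 4 h libraries, all 9 members were lower at 24 h and passed the test, by log2 changes of -0.53 to -1.21, beside 63.9% of all genes called in either direction and 26.7% called lower.

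The members therefore kept a common direction and different sizes of change. In the 24 h libraries the per-kb order became Mdh2, Idh2, Cs, Ogdh, Sucla2, Suclg1, Idh3a, Dlst and Fh1, with every neighbour overlapping the next. The ratio of Ogdh to Suclg1 within a library, a pair chosen after the values were seen, was 8.18 ± 1.15 in sham (n = 3), 6.20 ± 0.201 at 4 h (n = 3) and 3.97 ± 1.01 at 24 h (n = 4). In the second table the same ratio was 5.58 ± 2.1 in sham (n = 2), 5.66 ± 1.16 in Luc at 48 h and 6.19 ± 1.51 in AC at 48 h (n = 4 each), with no such shift. Across the 9 members, the Spearman correlation of transcript length with the log2 change at 24 h was -0.783, beside -0.171 across the 11960 genes tested that had a length. Length also went with the change at 4 h, at -0.6 for the members and -0.322 for all genes, and the part of transcript length or RNA quality in these changes was not tested.

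Markers of cell types moved at 24 h as well. The lowest value in the first table was 0.0313 CPM, so no marker could be at 0. Summed over 12 cardiomyocyte markers, the level was 54271 to 57884 CPM in sham, 53644 to 57746 CPM at 4 h and 24401 to 41080 CPM at 24 h. In that list 6 of 12 were called lower at 24 h, with Pln, Mybpc3 and Myh6 the strongest at log2 changes of -2.44, -1.78 and -1.77, and 1, Tnnc1, was called higher at 0.41. Summed over 13 leukocyte markers, the level was 110 to 177 CPM in sham and 707 to 2672 CPM at 24 h. In bulk tissue, fewer cardiomyocytes and less of an mRNA per cardiomyocyte cannot be told apart. Relative to the mean of the cardiomyocyte markers on the log2 scale, the mean of the members was -2.14 ± 0.0164 in sham (n = 3), -2.11 ± 0.0506 at 4 h (n = 3) and -2.06 ± 0.124 at 24 h (n = 4).

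With each library centred on those markers, the genes parted in direction. Ogdh was still lower at 24 h than in sham, at -0.60 (limma adjusted p = 0.000221), while Suclg1 at 0.46 (adjusted p = 0.00719), Mdh2 at 0.44 (0.00662), Fh1 at 0.32 (0.0369) and Sucla2 at 0.29 (0.0495) were higher. Cs, Idh3a, Idh2 and Dlst were not called, at -0.03, -0.16, 0.04 and 0.01. In this fit 70.8% of all genes were called higher and 6.24% lower, and the all-gene median was 0.85. Centring moves all genes of a library by the same amount, so the members' distance from that median was fixed to stay as before.

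**Figure D2:**
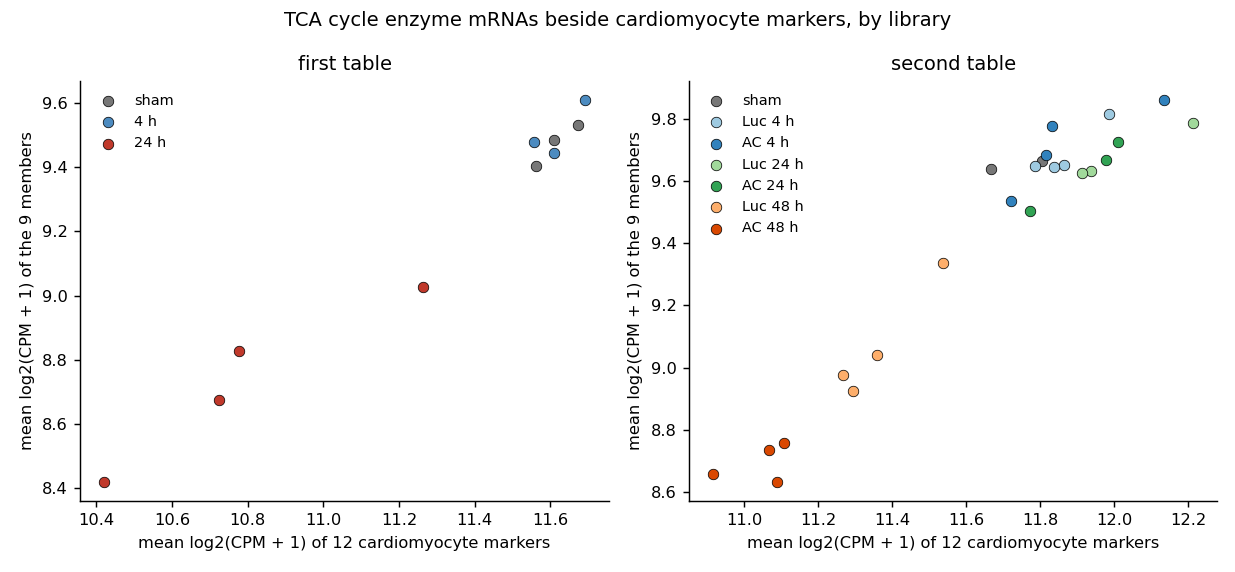
Mean log2 level of the 9 members in each library plotted against the mean log2 level of the 12 cardiomyocyte markers, in log2(CPM + 1), for each table, with a point per library and a colour per group. In the first table the 24 h libraries lie lower on both axes than sham and 4 h, and in the second the 48 h libraries lie lowest.

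Other subunits of the cycle moved the same way as the members in the first table. Of 8 such genes, 7 were called lower at 24 h and 0 higher, with a median log2 change of -0.60, beside 30.3% of all genes called lower. Dld, the dihydrolipoamide dehydrogenase shared with the pyruvate complex, was at -1.01, Sdha, the flavoprotein of succinate dehydrogenase, at -0.82, Sdhd, its membrane anchor, at -0.70, and Suclg2, the GTP-forming beta subunit of succinyl-CoA synthetase, at -0.67. Sdhb, the iron-sulphur subunit, was the 1 that missed the threshold, at -0.27 (adjusted p = 0.0647). With each library centred on the cardiomyocyte markers, Dld, Sdha, Sdhd and Suclg2 were not called (limma adjusted p from 0.124 to 0.991).

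Genes that govern pyruvate entry were mixed. Of 14, 9 were called lower and 2 higher at 24 h, with a median of -0.67. Pdp2, a phosphatase that activates pyruvate dehydrogenase, was at -2.49, and Pdk2, a kinase that inactivates it, at -1.60. Pdk4, another such kinase, was at 1.69 (adjusted p = 0.0192), a call that was lost without sham library H (1.22, adjusted p = 0.0967) or I (1.47, adjusted p = 0.0738). Among 15 cytosolic and shuttle partners, 10 were called lower and 3 higher, with a median of -0.64. The aspartate-glutamate carriers Slc25a13 and Slc25a12 were at -1.65 and -1.05, and the mitochondrial malic enzyme Me2 was at 1.02. Of 14 genes of mitochondrial content, such as import receptors, porins and prohibitins, 6 were lower and 3 higher, with a median of -0.29, closer to the all-gene median than that of the members. At 4 h, 0 genes of any of these lists were called, while 4 of 5 erythroid markers were called higher.

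**Figure D3:**
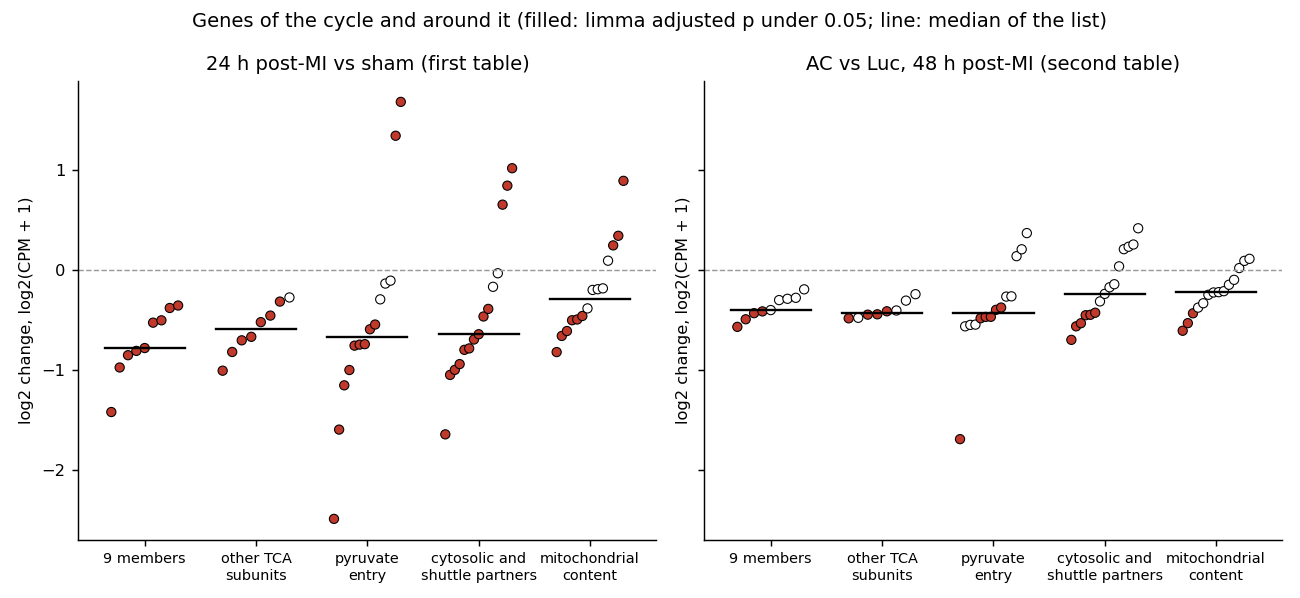
Log2 change of every gene in the TCA members and in the related lists, with 1 point per gene, a bar at the list median and filled points for genes called by limma (adjusted p under 0.05), for 24 h after MI against sham and for AC against Luc at 48 h. At 24 h after MI all 9 members are filled and below 0, and at 48 h 4 of the 9 members are.

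In the second table the members were followed under Luc and AC to 48 h. The labels give no date or batch for these libraries, but the sample numbers in the titles run on through sham and 4 h, start again at 48 h and are missing at 24 h. Only the 24 h titles carry the letters Br, whose meaning the titles do not give. Time and any batch of preparation or sequencing therefore cannot be told apart. The members' sum was 8437 ± 455 CPM in sham (SD, n = 2), 8952 ± 584 in Luc and 9000 ± 551 in AC at 4 h (n = 4 each), and 9247 ± 602 in Luc and 8821 ± 652 in AC at 24 h (n = 3 each). At 48 h it was 5715 ± 629 in Luc and 4396 ± 70.1 in AC (n = 4 each). Without rescaling, the fall seen at 24 h in the first table was thus not seen at 24 h in the second. There the summed cardiomyocyte markers of Luc were 69429 to 88399 CPM, above the 58283 to 60261 CPM of sham. All genes together summed to 730630 to 818456 CPM in these Luc libraries and to 619752 and 628938 CPM in sham. The members' median log2 change in Luc against sham was 0.05, beside 0.16 for all genes. With equal totals it was -0.26, beside -0.11, and 5 members were called, beside 4314 of all genes. Centred on the cardiomyocyte markers it was -0.24, beside -0.13, and 3 were called, beside 3962 of all genes. The main fit called 4275, or 34.1% of the 12555 genes tested. In the same comparison all 4 atrial markers were called higher, with a median log2 change of 4.15 (2.11 to 5.14), as they were in AC at 24 h against sham, with a median of 4.20; their sum was 60.7 to 117 CPM in sham, 362 to 603 CPM in Luc and 512 to 1504 CPM in AC at 24 h. Of 13 leukocyte markers, 7 were called higher and 1 lower in Luc at 24 h. The part of these tissue differences was not tested. The tables were scaled separately, and this difference between them was not tested.

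**Figure D4:**
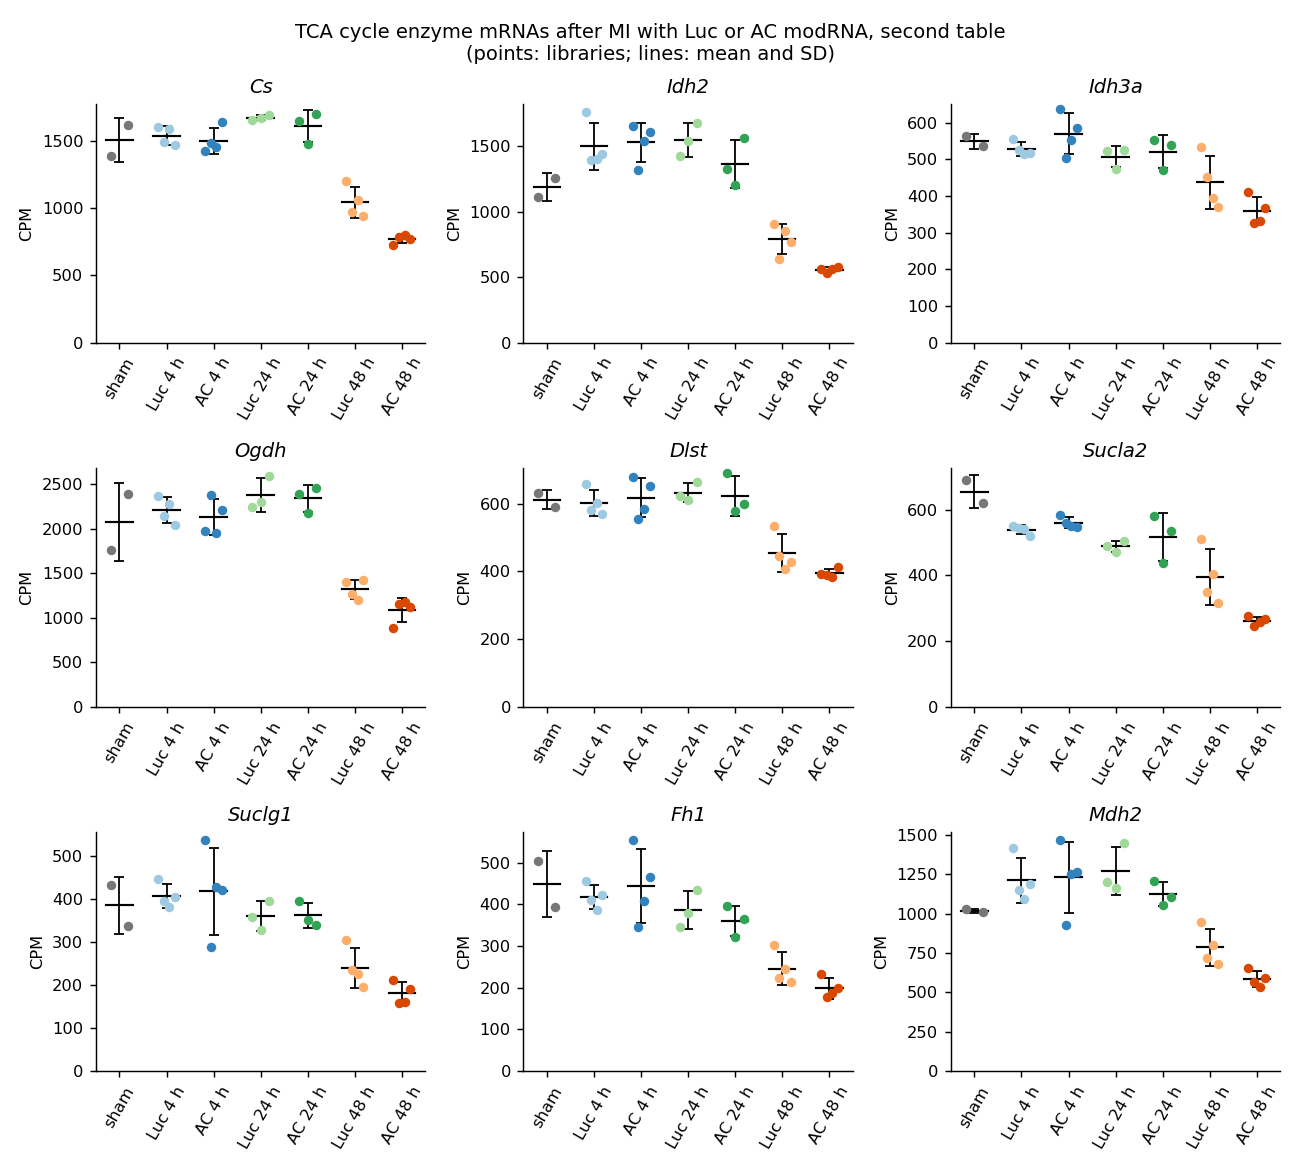
Level of each of the 9 genes in the second table, in CPM, with 1 point per library and a bar at the group mean with its SD for sham (n = 2), Luc and AC at 4 h (n = 4 each), 24 h (n = 3 each) and 48 h (n = 4 each). The group means are lowest at 48 h, and all 4 AC libraries at 48 h lie below all 4 Luc libraries for Cs, Idh2, Ogdh, Sucla2 and Mdh2.

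Against sham, limma on all 12555 genes called 0 of 9 members in Luc at 4 h, where 1 had an unadjusted p under 0.05, beside 1.55% of all genes. In Luc at 24 h it called 1 of 9, beside 34.1% of all genes in either direction and 8.79% lower. That gene was Sucla2, at 689 and 620 CPM in sham and 488, 471 and 505 CPM in Luc. Its log2 change of -0.42 (adjusted p = 0.0423) passed in 20 of 33 alternative fits. It did not pass when any 1 of the sham or Luc 24 h libraries was left out. Of those 20 fits, 13 left out 1 library, each from a group not compared. In Luc at 48 h, 7 of 9 were called lower and 0 higher, beside 30.1% of all genes called in either direction and 16.4% lower, with a median of -0.59 against -0.03 for all genes. Fh1 was the lowest at -0.87 (adjusted p = 9.63e-04), followed by Sucla2 at -0.75 (7.37e-04) and Suclg1 at -0.69 (0.0111). Mdh2 at -0.39 (adjusted p = 0.0874) and Idh3a at -0.34 (0.0785) missed the threshold. Markers moved as well: 10 of 13 leukocyte markers (median 2.03), 3 of 4 atrial (2.68) and 4 of 8 fibroblast markers (0.56) were called higher, and 3 of 12 cardiomyocyte markers (-0.39) lower. With each library centred on the cardiomyocyte markers, 2 members, Fh1 at -0.49 and Sucla2 at -0.38, were called lower, beside 4.33% of all genes. Without the first sham library 5 were called, without the second 4, and with only these 2 groups in the fit 1. All genes called in these fits were 2153, 2991 and 1504, against 3774 in the main fit. In AC at 48 h, all 9 were lower than in the same sham libraries and called, from -0.62 (Idh3a) to -1.32 (Sucla2), beside 38.6% of all genes in either direction and 15.4% lower.

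Between 24 and 48 h in Luc, 8 of 9 members were called lower, beside 41.9% of all genes in either direction and 32.6% lower. Idh2, which had stood at 1425, 1544 and 1680 CPM at 24 h, was at 909, 638, 850 and 772 CPM at 48 h, a log2 change of -0.98. The groups did not overlap. Idh3a, at 523, 474 and 527 CPM at 24 h and 534, 453, 394 and 371 CPM at 48 h, overlapped between the times and was not called (-0.23, adjusted p = 0.158). The all-gene median was itself at -0.25 between these times and the members' median at -0.66, a difference of -0.41. With median-ratio rescaling, which moved the all-gene median to 0.03, 4 members were called, beside 4021 of all genes. Within a library the ratio of Idh2 to Idh3a, also chosen after the values were seen, was 2.16 ± 0.271 in sham (n = 2), 2.83 ± 0.232 in Luc at 4 h (n = 4), 3.06 ± 0.288 in Luc at 24 h (n = 3), 1.84 ± 0.347 in Luc at 48 h (n = 4) and 1.57 ± 0.141 in AC at 48 h (n = 4). Sham and Luc at 48 h overlapped in this ratio, and in the first table it was 2.16 ± 0.45 in sham (n = 3) and 2.44 ± 0.0712 at 24 h after MI (n = 4).

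The second question was whether the cycle's transcripts differed between AC and Luc. At 4 h limma called 0 of 9 members and at 24 h 0 of 9, with 0 at an unadjusted p under 0.05 at either time, beside 0.00796% of all genes called at each. Sucla2, for example, was at 550, 544, 541 and 519 CPM in Luc and at 583, 558, 550 and 548 CPM in AC at 4 h. At 24 h it was at 488, 471 and 505 CPM in Luc and at 580, 438 and 533 CPM in AC. The libraries overlapped at both times. At 48 h all 9 were lower in AC and 4 of 9 passed the test, beside 15.3% of all genes called in either direction and 3.27% called lower. The members' median was -0.40, beside 0.14 for all genes. For 5 of the 9, Cs, Idh2, Ogdh, Sucla2 and Mdh2, every AC library lay below every Luc library, beside 3.58% of all genes.

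Sucla2, the ATP-forming beta subunit, differed most: it was at 510, 348, 402 and 316 CPM in Luc and at 275, 245, 258 and 266 CPM in AC. No library overlapped, and the AC libraries were the tighter group. The AC mean was 0.663 ± 0.147 of the Luc mean, a log2 difference of -0.57 (SE 0.12, adjusted p = 0.00351) that was called in 34 of 34 alternative fits.

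Idh2, the NADP-dependent isocitrate dehydrogenase, was at 909, 638, 850 and 772 CPM in Luc and at 562, 531, 560 and 579 CPM in AC. Cs was at 1205, 971, 1059 and 946 CPM in Luc and at 725, 787, 803 and 771 CPM in AC. Both separated the groups fully, with Luc library 1 the highest in each. The log2 difference was -0.49 for Idh2 (SE 0.13, adjusted p = 0.0118) and -0.43 for Cs (SE 0.10, adjusted p = 0.00773), and each was called in 31 of 34 alternative fits.

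Mdh2, which regenerates oxaloacetate, was at 944, 715, 804 and 677 CPM in Luc and at 654, 566, 534 and 589 CPM in AC, with a log2 difference of -0.41 (SE 0.14, adjusted p = 0.0455) that was called in 16 of 34 alternative fits. Ogdh was at 1397, 1266, 1199 and 1423 CPM in Luc and at 888, 1156, 1181 and 1120 CPM in AC. Its groups did not overlap, yet the highest AC library lay just under the lowest Luc library and the difference of -0.29 missed the threshold (adjusted p = 0.118). Suclg1 at -0.40 (adjusted p = 0.0935), Fh1 at -0.30 (0.164), Idh3a at -0.28 (0.113) and Dlst at -0.19 (0.222) overlapped between the groups and missed it too. The count rested in part on single libraries, being 2 without Luc library 3 and 6 without Luc library 4. It was 1 with only these 2 groups in the fit and 8 with median-ratio rescaling. All genes called in these fits were 812, 2890, 1383 and 1756, against 1926 in the main fit.

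**Figure D5:**
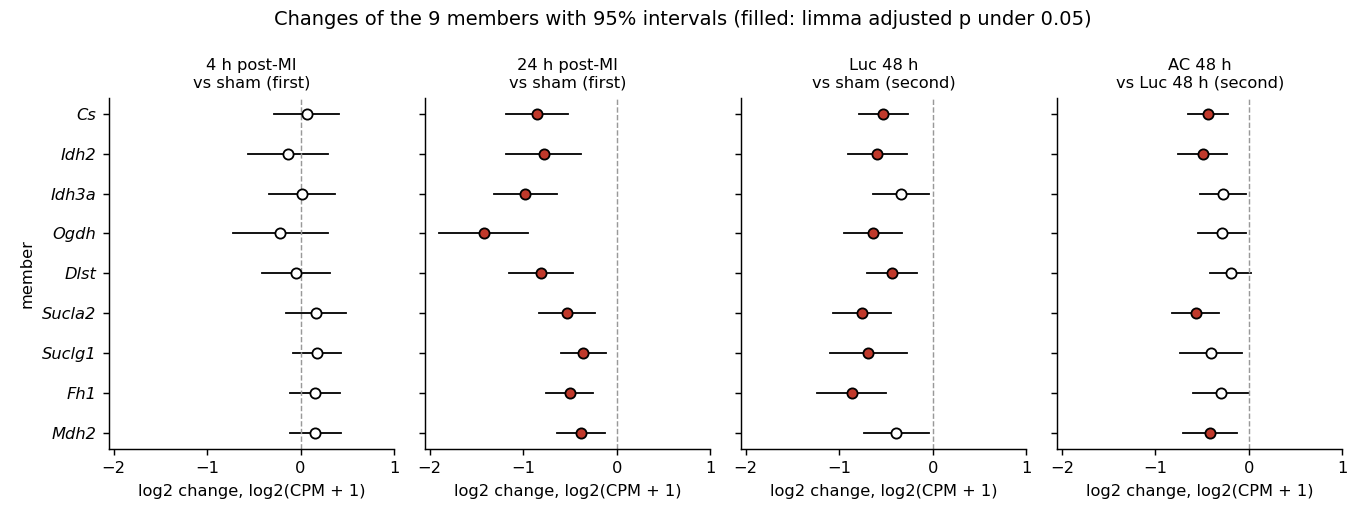
Log2 difference of each of the 9 genes with its 95% confidence interval from limma, for 4 h and 24 h after MI against sham in the first table and for Luc at 48 h against sham and AC against Luc at 48 h in the second, with filled points where the adjusted p was under 0.05. All 9 are filled at 24 h after MI, none at 4 h, and Sucla2 lies farthest below 0 for AC against Luc.

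Whether the AC difference changed with time was tested directly. From 4 to 48 h it changed for 1 of 9 members, beside 3.35% of all genes in either direction and 0.47% lower, and that was Sucla2 at -0.63 (SE 0.17, adjusted p = 0.0465). From 24 to 48 h it was called for 0 of 9 by limma, with 2 at an unadjusted p under 0.05, beside 2.56% of all genes, and Sucla2 was at -0.64 (adjusted p = 0.0673). Sucla2 was called from 4 to 48 h in 7 of the 24 fits that left out 1 library. Those 7 included the fits without sham library 1, without sham library 2, and without AC 24 h library A or C. These groups are not part of the comparison, so leaving them out did not change the difference itself. Sucla2 was not called when any Luc or AC library at 4 h was left out.

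Markers moved with the AC difference at 48 h. The summed cardiomyocyte markers were 40741 to 54730 CPM in Luc and 30726 to 38512 CPM in AC, the leukocyte markers 377 to 718 CPM and 605 to 816 CPM, and the 8 fibroblast markers 953 to 1812 CPM and 2290 to 3906 CPM, with none of the markers at 0. Of these lists, 2 of 12 cardiomyocyte markers were called lower in AC, 7 of 13 leukocyte and 6 of 8 fibroblast markers higher. With each library centred on the cardiomyocyte markers, Sucla2 was still called lower in AC at -0.25 (limma adjusted p = 0.0441), and Idh2 at -0.17 (0.144), Cs at -0.11 (0.381) and Mdh2 at -0.10 (0.357) were not. In this fit 1.18% of all genes were called lower, 6552 were called higher and 148 lower, and the all-gene median was 0.45.

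Related genes were also lower in AC at 48 h, where 3.27% of all genes were called lower. Of the 8 other TCA subunits, 4 were called lower and 0 higher, with a median of -0.43; Sdha was at -0.48 and Suclg2 at -0.44. Of the 14 pyruvate entry genes 6 were lower, with a median of -0.43, and Pdk4 was at -1.69 (adjusted p = 0.0375) and Pdk2 at -0.47. Among 15 cytosolic and shuttle partners 6 were lower, with a median of -0.24 and Slc25a12 at -0.56, and among 14 genes of mitochondrial content 3 were lower, with a median of -0.22. None of the genes in the last 3 lists was called higher. With each library centred on the cardiomyocyte markers, Pdk4 stayed lower at -1.38 (limma adjusted p = 0.0369). Sdha at -0.165 (0.22), Suclg2 at -0.12 (0.373), Pdk2 at -0.15 (0.298) and Slc25a12 at -0.25 (0.12) were then not called.

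Across libraries the members moved closely together. The Pearson correlation of log2 levels between members had a median of 0.968 and a range of 0.786 to 0.997 over the 10 libraries of the first table, and a median of 0.921 and a range of 0.758 to 0.977 over the 24 of the second. The libraries of a table share its groups, so these values describe the group differences as much as the genes. Of the 7695 other genes with at least 10 CPM in the first table, those most like the mean of the members were Etfa (r = 0.998), Atp5a1 and Pdha1 (0.997 each), and Mdh1 and Ndufa10 (0.996 each). In the second, with 7719 such genes, they were Atp5b (0.997), Idh3g (0.996), Ckmt2 (0.992), Ndufa10 (0.991) and Acadm (0.990). Etfa and Acadm take part in fatty acid oxidation, Atp5a1 and Atp5b form the core of ATP synthase, Pdha1 belongs to pyruvate dehydrogenase, Idh3g is a regulatory subunit of the enzyme that holds Idh3a, Ndufa10 belongs to complex I, and Ckmt2 is the mitochondrial creatine kinase of muscle.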

How the data were processed

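The authors aligned the reads of the first table to mm10 with STAR, counted them on RefSeq transcripts in Partek Flow and deposited TMM-normalised CPM values. The deposited values of the second table are CPM + 1, with a lowest value of 1 in all 24 libraries. Its pipeline is not given in the sources used here, and 1 was subtracted. Reads on the listed genes of the first table were estimated at 12553519 to 18952669 per library, which is less than the full depth. The estimate divided the summed CPM by the lowest value, taken as 1 read (0.0313 to 0.0479 CPM). Only 81.5% to 83.7% of values under 1 CPM were whole multiples (tolerance 0.02), so reads were not recovered and no count test was run. The second table summed to 508204 to 818456 CPM, and its depth is unknown. The ribosomal transcript Rn45s ran from 6881 to 40038 CPM in the first table. All columns were mapped to samples, and 0 pairs of libraries were identical.

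Values were tested as log2(CPM + 1) with limma 3.58.1 in R 4.3.3 (lmFit, eBayes with trend), with 1 model per table, for genes averaging 1 CPM or more, two-sided, and Benjamini-Hochberg adjustment over all genes tested. Called means an adjusted p under 0.05. Log2 changes on this scale understate those of low genes. Libraries are separate samples by their labels, which for the second table do not say from which animals, so p-values measure the spread between libraries. Levels, ratios and correlations were computed with Python 3.11.15, numpy 2.4.6 and pandas 2.3.3. All 9 members were named. From the other lists (other TCA subunits, pyruvate entry, cytosolic and shuttle partners, mitochondrial content, and cell type markers) genes were named by the largest change at 24 h after MI, and the 5 genes most like the members by correlation. Markers were added where they touch a result. Of the other TCA subunits, 1 gene of the list is not reported here. The members and lists were chosen with earlier results of these data known. In simulated data for 24 h against sham (12474 genes), 44 of 50 genes set to a fold of 0.5 and 7 of 50 set to 0.7 were called. For AC against Luc at 48 h (12543 genes), 50 of 50 and 8 of 50 were. The simulations changed few genes and held no shift of tissue or scaling, unlike the real comparisons. Their shares therefore do not give the power of the tests here. Alternatives were pseudocount, filter, trend, array weights, groups in the model, 3 other scalings, the replicate block and leaving out each library. Leaving out a library of a group not compared left the difference itself unchanged and altered only the estimated spread and the adjustment.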

Additional observations from a re-analysis of the deposited data

Results flagged for a closer look

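Idh2 in the Luc group at 4 h had 1 library, library 1 at 1765 CPM, that stood above the other 3 by 0.876 of the group's range, past Dixon's 95% critical value. It was 1 of 45 groups of 4 libraries examined, and chance flags about 1 in 20.

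The effect of MI against the same sham libraries differed between 24 h and 4 h for all 9 members by limma's test of the difference. This equals the difference between the 24 h and 4 h libraries, where 63.9% of all genes were called and 26.7% were lower. On the log2 scale it was -1.21 for Ogdh, -0.99 for Idh3a, -0.92 for Cs, -0.76 for Dlst, -0.69 for Sucla2, -0.66 for Fh1, -0.65 for Idh2, -0.54 for Mdh2 and -0.53 for Suclg1. With each library centred on the cardiomyocyte markers, 1 member was called, Ogdh at -0.38.

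The AC effect on Sucla2 differed between 48 h and 4 h by -0.63 on the log2 scale, where 3.35% of all genes were called.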

How the results depend on the processing

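Centring on the cardiomyocyte markers turned the most signs. Against sham at 24 h it left 5 of 9 members called, and it turned the sign of the members' median (0.0378) and of Idh2 (0.0378), Dlst (0.0094), Sucla2 (0.29), Suclg1 (0.46), Fh1 (0.32) and Mdh2 (0.44), as of Sdhd (0.12), Suclg2 (0.15), Pdha1 (0.0621), Mdh1 (0.12), Ndufa10 (0.16), Idh3g (0.36) and Ckmt2 (0.32). For 24 h against 4 h it left 1 member called and turned the median (0.13), Idh2 (0.18), Dlst (0.0612), Sucla2 (0.13), Suclg1 (0.29), Fh1 (0.16) and Mdh2 (0.28). For Luc at 48 against 24 h it left 3 called and turned Dlst (0.17), Sucla2 (0.33) and Suclg1 (0.0589). It left 1 called for AC against Luc at 48 h, 2 for Luc at 48 h against sham, 3 for Luc at 24 h against sham and 0 for the change of the AC effect from 4 to 48 h.

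Called members of AC against Luc at 48 h were 4, and were 1 with only those groups in the model and 8 with median-ratio rescaling. All genes called were 1926, 1383 and 1756 in the same order. For Luc at 24 h against sham, 1 became 0 with no filter or only those groups, and 5 with equal totals. For Luc at 48 h against sham, 7 became 1 with only those groups, while all genes called went from 3774 to 1504. For Luc at 48 against 24 h, 8 became 4 with median-ratio rescaling and 3 with equal totals, where Sucla2 turned to 0.15. The change of the AC effect from 4 to 48 h, 1, became 0 with a pseudocount of 0.1, a mean of at least 5 CPM, no trend or only those groups. It became 5 with array weights and 3 with median-ratio rescaling. With array weights 1621 of all genes were called and with median-ratio rescaling 470, against 421 in the main fit.

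Leaving out each library gave 8 to 9 members for 24 h against sham, 9 for 24 h against 4 h, 2 to 6 for AC against Luc at 48 h, 0 to 1 for Luc at 24 h against sham, 4 to 9 for Luc at 48 h against sham (4 without the second sham library), 7 to 9 for Luc at 48 against 24 h, and 0 to 2 for the change of the AC effect (2 without Luc 48 h library 2).

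All-gene calls (higher, lower) shifted with scaling: 24 h against sham from 4449 and 3787 to 8846 and 779 (centred); 24 h against 4 h from 4644 and 3332 to 9270 and 614 (centred); AC against Luc at 48 h from 1516 and 410 to 1132 and 624 (median-ratio) or 6552 and 148 (centred); Luc at 24 h against sham from 3172 and 1103 to 2249 and 2067 (median-ratio) or 1833 and 2481 (equal totals); Luc at 48 against 24 h from 1170 and 4088 to 2310 and 1711 or 3252 and 945; Luc at 48 h against sham from 1714 and 2060 to 2221 and 1674 or 2502 and 1286 (3916 and 544 centred). Centring also gave 1636 and 2326 for Luc at 24 h against sham and 5558 and 454 for Luc at 48 against 24 h. Replicate labels did not pair the libraries: 2 of 5 same-letter pairs in the first table and 16 of 32 same-label pairs in the second had a correlation of deviations over 0.1, and the best match had the library's own label in 3 of 7 and 7 of 23. With the replicate block 8 members were called at 24 h against sham, 7 for Luc at 48 h against sham, 2 for AC against Luc at 48 h and 0 for the change of the AC effect. The cause of these changes was not tested. The number of libraries limits the precision, and the depth of the second table is unknown.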
